A study of Mus musculus with 4 samples.

Results

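Resting interstitial fibroblasts were selected on measured UMI counts, as fibroblast nuclei with few transcripts of the activated, adventitial-type and cycling fibroblast genes, in single-nucleus RNA sequencing of whole hearts from wild-type mouse pups. A nucleus counted as a fibroblast when it had at least 500 genes, at most 5% mitochondrial UMIs, under 0.5% of its UMIs on Ttn, Ryr2, Trdn, Ctnna3, Rbm20 and Tnnt2, and at least 5 UMIs from 3 or more of Pdgfra, Col1a1, Col1a2, Col3a1, Dcn and Tcf21. A UMI is a molecular barcode that marks 1 captured transcript. The nucleus was then called resting when it had under 5 UMIs over Col8a1, Tnc, Meox1, Ltbp2 and Kcnk2 (the activated genes), under 5 over Pcsk6, Scara5, Gfpt2, Hmcn2, Clec3b and Medag (the adventitial-type genes) and under 3 over Top2a, Mki67, Cenpf, Cenpe, Anln and Kif11 (the cycling genes). In all, 3395 of 36648 deposited barcodes met the rule, out of 34165 kept nuclei and 9046 fibroblast nuclei.

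The study set hearts that received YAP5SA, a form of the growth regulator YAP that the Hippo kinases cannot switch off, against saline-injected hearts, with mothers fed chow or a high-fat diet (HFD). Pups were injected at postnatal day 7, the maternal diet lasted 5 days, and hearts were collected at day 12. The 4 groups were control (saline) with chow, YAP5SA with chow, control with HFD and YAP5SA with HFD, each 1 library, with 641, 556, 1317 and 881 resting nuclei in that order. The vector was an AAV9 with the cTnT promoter, which drives expression in cardiomyocytes, so the fibroblasts were not its intended target. The controls received saline and no virus, so an effect of the virus and one of its YAP5SA cargo cannot be told apart. The diet of 2 libraries rests on their titles, because their treatment labels name the other diet, and the number of hearts behind a library was not given.

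Cardiac fibroblasts lie between the cardiomyocytes, where they build and turn over the collagen network and signal to muscle, vessels and immune cells. In the resting state they express the receptor Pdgfra and the transcription factor Tcf21, and on injury or stretch they can turn on contractile, matricellular and chemokine genes. YAP and its partner TAZ bind DNA through the TEAD factors, and Ccn2 and Ankrd1 are among their best known target genes.

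The 4 libraries held 43408234 to 61191454 UMIs, and the summed resting nuclei held 2046895 to 5521219. A resting nucleus had a median of 3757 and 3721 UMIs in the chow and HFD controls and 3217 and 3139 in the YAP5SA chow and HFD libraries, so the YAP5SA nuclei were shallower on both diets. The YAP5SA chow library stood apart by sex: its resting nuclei had 1.95 Xist UMIs per 1000000 UMIs of the summed nuclei (CPM) against 2361 to 2549 in the other 3 libraries, and 113 CPM of the Y-linked Ddx3y against at most 0.362. A difference that rests on that library alone cannot be told apart from sex. Libraries shared 11 to 34 barcodes in pairs, none of them between resting nuclei, and a doublet caller marked 1.75 to 2.7% of the resting nuclei. Its automatic threshold was used for the HFD libraries. In the control and YAP5SA chow libraries that threshold marked only 0.0785 and 0.0115% of kept nuclei. There the top scores were taken instead, at a set rate of 0.8% per 1000 nuclei, so the shares are not alike between diets.

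The label was checked against markers of other cell types. At least 3 UMIs of endothelial or endocardial markers were present in 28.2% (95% exact binomial interval 24.8 to 31.9), 29.7%, 33.6% and 23% of the resting nuclei of the control chow, YAP5SA chow, control HFD and YAP5SA HFD libraries, against 3.93 to 6.79% of cardiomyocyte nuclei. Epicardial markers (Wt1, Msln, Upk3b, Muc16, Upk1b and Krt19) reached 3 UMIs in 15%, 38.3%, 18.4% and 16.1% of them in the same order, against 0.359 to 1.18% of cardiomyocyte nuclei. The share with epicardial markers in the YAP5SA chow library was thus above that of the other 3 libraries. Macrophage markers reached that level in 2.16 to 4.18% of the nuclei, smooth muscle markers in 1.93 to 2.7% and Schwann markers in at most 0.54%. Pericyte markers did so in 3.96 to 9.36% of resting nuclei and in 15.5 to 44.4% of cardiomyocyte nuclei. Cardiomyocyte nuclei had the pericyte marker Abcc9 at 317 CPM but Rgs5 at 17.8 CPM. Their share is therefore no background level for pericyte markers. These intervals and all others on shares and UMI ratios cover counting error only.

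**Figure D1:**
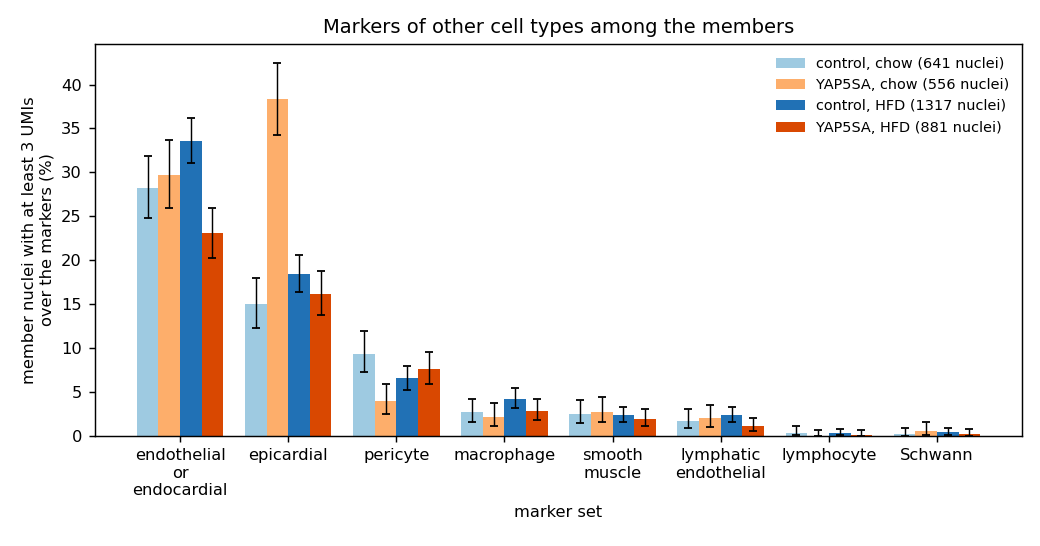
Share of the resting nuclei (y axis, %) with at least 3 UMIs over the markers of each other cell type (x axis), 1 bar per library with its exact binomial 95% interval. Endothelial or endocardial and epicardial markers lead, and the epicardial bar of the YAP5SA chow library stands at 38.3% against 15 to 18.4% in the others.

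Nuclei with under 3 UMIs for each of the 8 other cell types are called the core below. The core held 1745 of the 3395 nuclei, 370 in the control chow, 226 in the YAP5SA chow, 632 in the control HFD and 517 in the YAP5SA HFD library, or 57.7%, 40.6%, 48% and 58.7% of each library's resting nuclei. This gate was chosen after the markers were seen. Of activated fibroblast nuclei, 78.2 to 88.2% passed the same gate. The core also differed from the 1650 nuclei outside it in fibroblast genes that the gate did not use. Abca8a, a lipid transporter gene outside the rule, stood at 1786 CPM and in 84.9% of core nuclei, against 258 CPM and 23.8% outside the core. Svep1, an adhesion and matrix gene also outside the rule, stood at 433 CPM against 81.7 CPM. Pdgfra, which the rule used, had a UMI in 57% of core nuclei and in 16.5% of those outside, against 16.2 CPM in cardiomyocyte nuclei. The nuclei outside the core showed Muc16 at 370 CPM, Flt1 at 447 CPM and Npr3 at 685 CPM, against 2.94, 8.83 and 23.2 CPM in the core. The gate fixed that difference, since it used these genes. The nuclei outside the core are called resting by the rule only, with no cell type name.

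The 3395 nuclei were also clustered by expression into 9 groups. The gate's marker genes were kept in the clustering, so its agreement with the gate is partly built in. The largest group, with 1313 nuclei and 95.6% of them core, was led by Kcnn3, Adra1a, Tll2, Abca8a and Dpep1. A group of 360 nuclei, 83.9% core, was led by Sorcs3, Col24a1, Masp1 and Piezo2, and one of 155 nuclei, 92.9% core, by Cntn5 and Wif1. A group of 677 nuclei, 3.55% core, was led by Muc16, Il18r1, Efemp1 and Upk1b, genes of the epicardial surface layer for the first and last named. A group of 437 nuclei, 0.458% core, was led by Nrg1, Nrxn3, Emcn and Nos3, and one of 251 nuclei, 1.2% core, by Dock2, Dach1, F13a1, Mrc1 and Ptprc. The remaining 3 groups of 117, 64 and 21 nuclei carried Abcc9 and Rgs5, Myh11 and Lmod1, and Csmd1 and Sox10 among their leading genes. These clusters describe the nuclei and were not tested.

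The rule's limits cut through a continuum. The 5-UMI limit on the fibroblast genes had 213 nuclei just inside and 238 just outside it, the activated-gene limit 253 and 221, and the adventitial-gene limit 251 and 198. The rule also depends on depth, since its limits are UMI counts. Of cardiomyocyte nuclei, with medians of 4914 to 6428 UMIs, 4.7 to 15.9% passed the 5-UMI, 3-gene fibroblast limit. The parts of depth, free RNA and doublets in that share were not tested.

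Resting nuclei made up 10.1% (9.33 to 10.8) of kept nuclei in the control chow library, 6.41% (5.91 to 6.95) in YAP5SA chow, 15.7% (14.9 to 16.5) in control HFD and 8.21% (7.7 to 8.75) in YAP5SA HFD. Of fibroblast nuclei they were 44.5%, 33.9%, 41.2% and 31.8%. After every nucleus was thinned to 2000 UMIs the shares of fibroblast nuclei were 67.8%, 45.9%, 64.6% and 45.4%. The resting share was lower in the YAP5SA library than in its control on both diets, thinned or not. Limits of 3 in place of 5 UMIs on the activated and adventitial-type genes gave 28.5%, 27.5%, 27.6% and 22.1%, and the chow libraries then differed by less than counting error. In fibroblast nuclei without the other types' markers the resting share was 36.5%, 21%, 31.5% and 24.6%. In those nuclei activated fibroblasts made up 14.1%, 44.3%, 12.7% and 36.5%, and adventitial-type fibroblasts 30.2%, 2.79%, 33.4% and 5.15%. With 2 libraries against 2, an exact permutation test of shares cannot go below 0.333, so none was run.

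**Figure D2:**
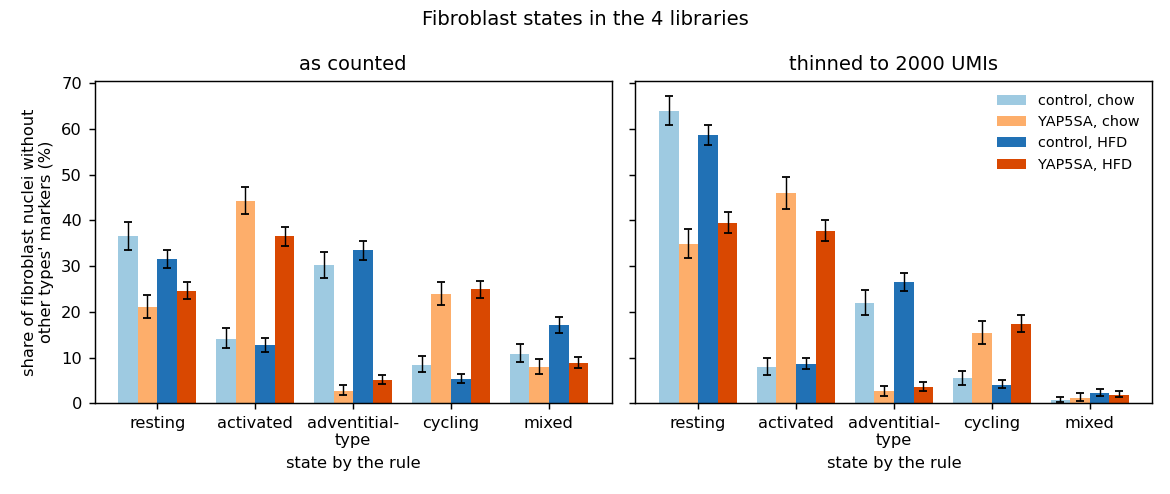
Share of fibroblast nuclei without other types' markers (y axis, %) in each state of the rule (x axis), as counted and after thinning to 2000 UMIs, 1 bar per library with its exact binomial 95% interval. Resting bars are lower and activated bars higher in the YAP5SA libraries, and adventitial-type bars drop from 30.2 and 33.4% to 2.79 and 5.15% as counted.

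Core nuclei with 0 adventitial-gene UMIs were 24.6% and 24.4% of the chow and HFD control cores and 45.6% and 44.7% of the YAP5SA ones. Core nuclei with 3 to 4 of these UMIs, next to the limit, were 31.4% and 32.4% in the controls and 9.73% and 17.4% in the YAP5SA libraries. For the activated genes the share with 3 to 4 UMIs was 27.3%, 23.9%, 26.7% and 30.8% in the order control chow, YAP5SA chow, control HFD and YAP5SA HFD. These are genes of the rule, counted without thinning in YAP5SA cores that were shallower (medians of 2774.5 and 2890 UMIs against 3277 and 3330), so they are a description only. Their part in the gene differences was not tested beyond the narrower limits given there.

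Transcripts of the core were led, apart from Malat1, by Gpc6, a glypican of the cell surface, at 3821 to 5766 CPM over the 4 libraries. Rora, a nuclear receptor of the clock, stood at 3580 to 5908 CPM, Zbtb20 at 3180 to 4970 CPM, Nfia at 3259 to 3868 CPM and Lama2, a laminin chain of the basement membrane, at 3061 to 3693 CPM. These are UMIs of a 3′ assay, and gene length was not taken into account. Genes set apart from every other cell class by the ratio of the lowest core library to the highest other class were Dpep1, a membrane dipeptidase (ratio 17.2, 37.2 to 57.5 CPM), and Tll2, a tolloid-like protease (13.3, 66 to 124 CPM). Lepr, the leptin receptor (12), Rgs17 (10.9), Svep1 (10.6) and Sox9 (7.7) followed, beside the rule genes Pdgfra and Tcf21. The other classes were rebuilt from markers and leave out the other fibroblast states. Sox9 stood at 96 and 62.7 CPM in activated and adventitial-type nuclei and Svep1 at 352 and 261 CPM, so neither sets resting nuclei apart from those. Lepr was called lower in resting than in adventitial-type core nuclei, so it does not set them apart from that state. Of 6 valve interstitial markers Sox9 and Wif1 led in the core, at 73.9 and 20.4 CPM, with the sum of all 6 at 89.8 to 123 CPM and Col2a1 at 0, and their part in the results was not tested.

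The YAP5SA libraries were compared with the controls over both diets, 2 libraries against 2, on UMIs summed per library. Over all 3395 resting nuclei edgeR's quasi-likelihood test called 0 of 13462 genes (0%) at an adjusted p under 0.05, and 1625 genes had an unadjusted p under 0.05. DESeq2 called 129, and edgeR with diet as a second term, which pairs the libraries by diet, called 165. The smallest adjusted p was 0.0897. A filter set at the outset, which left out nuclei with other types' markers by longer marker lists, kept 1144 nuclei and gave 98 called genes of 9713 (1.01%), 48 higher (0.494%) and 50 lower (0.515%). Its lists also held genes found in many core nuclei, such as Scn7a (a UMI in 38.5% of them), Cgnl1 (37%) and Notch3 (31.9%). It therefore left out nuclei by such genes too, and it is no plain measure of purity. In the core 134 of 11298 genes were called (1.19%), 71 higher (0.628%) and 63 lower (0.558%) in the YAP5SA libraries. For each of the 134 both YAP5SA libraries lay on one side of both controls. The calls favour genes with such a separation and its share over all tested genes was not counted, so it adds no support. Of the 134, 130 were tested under the stricter filter, all 130 had the same sign there, and 81 were called. Among all resting nuclei 118 of the 134 had an unadjusted p under 0.05. These sets share nuclei of the same libraries, so their agreement is not independent support.

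The core count moved with single libraries: 684 genes were called without YAP5SA chow, 334 without YAP5SA HFD, 212 without control chow and 204 without control HFD. Without YAP5SA chow, the library of the other sex, 133 of the 134 genes were still called. Narrower state limits of 3 UMIs left 967 core nuclei, and 12 of 127 genes were then still called, all 127 with the same sign. DESeq2 called 106 genes in the core, 36 higher and 70 lower, against edgeR's 71 and 63. Across genes of at least 10 CPM the median difference was 0.08 on chow and 0.07 on HFD on the log2 scale, and TMM scaling shifted all values by -0.11 and -0.13. On both diets 451 of those 9939 genes (4.54%) had a ratio of 1.5 or more over the control, and 160 (1.61%) the inverse or less.

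**Figure D3:**
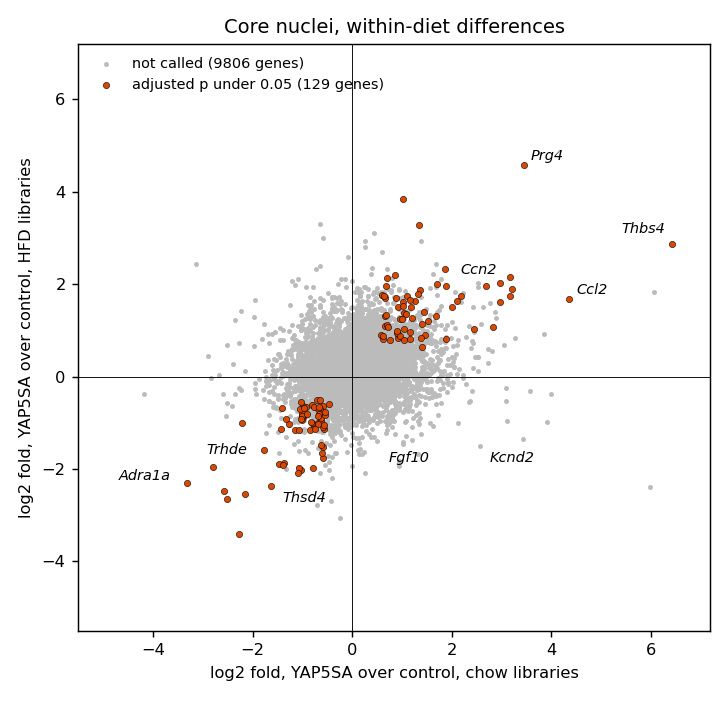
Each point is 1 of 9935 tested genes of at least 10 CPM in the core, with the log2 fold of YAP5SA over control in the chow libraries (x axis) and in the HFD libraries (y axis), and with rule genes left out. The 129 coloured genes were called over both diets and lie in the corners where both folds share a sign, while Kcnd2 and Fgf10 are high on chow and low on HFD.

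Ccn2 (connective tissue growth factor, a YAP target, chr10:24595442-24598683, mm10) was at 33.3 and 42.2 CPM in the chow and HFD control cores and at 216 and 164 CPM in the YAP5SA cores. Its log2 fold was 2.22 ± 0.22 (SE), with edgeR adjusted p-values of 0.00349 in the core, 0.00664 under the stricter filter and 0.0897 over all resting nuclei. Cardiomyocyte nuclei, in which the vector acts, had 32 and 37.4 CPM in the controls and 278 and 132 CPM with YAP5SA, so the core level was below theirs on chow and above it on HFD, and the part of free cardiomyocyte RNA in it was not tested. The summed cardiomyocyte markers of the core, 6 of 10 of which the rule itself capped, were at 2144 and 2030 CPM in the controls and at 1424 and 1264 CPM with YAP5SA.

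Ccl2, the monocyte chemokine (chr11:82035571-82037453), stood at 6.19 and 10.3 CPM in the control cores and at 134 and 33.5 CPM in the YAP5SA cores. Its fold was 3.06 ± 0.58 (log2, SE), with an adjusted p of 0.0357 in the core, 0.0345 under the stricter filter and 0.138 over all resting nuclei. The YAP5SA chow core was the highest and the groups did not overlap. Ccl2 lies inside the gene model Gm17268 (chr11:82028224-82038562), which was called as well, at 13.9 and 8.98 CPM against 46.1 and 36.7 CPM, so their reads may be shared. Ccl7, a sister chemokine, had 2 and 2 UMIs in the control cores and 10 and 19 in the YAP5SA cores (adjusted p 0.0371). In cardiomyocyte nuclei Ccl2 was lower in every library, with 0.941 to 23.3 CPM.

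Prg4, which encodes the surface lubricant lubricin (chr1:150449412-150466165), had the largest fitted fold of the higher genes the naming rule chose. It had 1 and 2 UMIs in the control cores and 8 and 42 in the YAP5SA cores. The ratios on the log2 scale were 3.45 (1.04 to 9.41) on chow and 4.58 (2.94 to 7.98) on HFD, and the adjusted p was 0.0136 in the core and 0.13 over all resting nuclei. It was too low to be tested under the stricter filter. Thbs4, a thrombospondin of injured muscle and tendon, had 0 and 4 UMIs in the controls and 22 and 23 with YAP5SA (adjusted p 0.0319, and 0.064 under the stricter filter), and its level stayed below that of cardiomyocyte nuclei.

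Runx1, a transcription factor of activated mesenchyme, rose from 3.87 and 10.3 CPM to 32.7 and 32.2 CPM (log2 fold 1.99 ± 0.41, adjusted p 0.0441 in the core, 0.0329 under the stricter filter and 0.748 over all resting nuclei). Nhsl2, an actin-regulator relative on the X chromosome, rose from 17 and 28.3 CPM to 74.3 and 88.5 CPM (1.74 ± 0.27, adjusted p 0.0146). Bdnf, a neurotrophin, rose from 13.1 and 16.2 CPM to 53.5 and 46.1 CPM (adjusted p 0.0256, and 0.0877 under the stricter filter). Etv4, an ETS factor of the FGF response, rose from 20.1 and 18.9 CPM to 55 and 49.9 CPM (adjusted p 0.038, and 0.0703 under that filter). Sele, the endothelial adhesion receptor E-selectin, was at 2.32 and 6.29 CPM in the controls and at 23.8 and 21.5 CPM with YAP5SA (adjusted p 0.049, and 0.149 under that filter). Bmpr1b, a BMP receptor, was at 2.32 and 2.69 CPM against 23.8 and 12.6 CPM, and was not tested under that filter. Gm4793 (adjusted p 0.209 under that filter) and Fam163b (0.014) also rose. Pdzrn4 was called too, at 17.8 and 81.3 CPM against 168 and 305 CPM. It was not called under the stricter filter (0.92, adjusted p 0.611), which counted Wif1 among its markers. Pdzrn4 is a leading gene of the Cntn5 and Wif1 cluster. Without that cluster it had 15 and 14 UMIs in the control cores and 4 and 13 with YAP5SA. The clusters were formed on expression of these same nuclei, so that loss of a leading gene is partly built in. Among all called genes of at least 10 CPM, 55 of the 66 higher and 49 of the 63 lower ones met that level.

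The lower genes included receptors, channels and secreted factors. The cardiomyocyte genes Myh6 (log2 fold -0.997, edgeR adjusted p 0.0161) and Myl2 (-0.984, 0.0353) were called lower in the core too. Nppb, a natriuretic peptide gene, was called higher (2.58, 0.0261). The part of free cardiomyocyte RNA in these calls was not tested. Adra1a, the alpha-1A adrenergic receptor (chr14:66635251-66771168) and a leading gene of the largest cluster, stood at 95.9 and 98.3 CPM in the control cores and at 8.92 and 19.6 CPM with YAP5SA. Its log2 fold was -2.67 ± 0.29, with adjusted p-values of 0.00456 in the core, 0.00988 under the stricter filter and 0.0897 over all resting nuclei. The 2 control cores were nearly equal and lay far above both YAP5SA cores. Cardiomyocyte nuclei had 2.77 to 8.09 CPM.

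Trhde, which breaks down thyrotropin-releasing hormone, fell from 135 and 127 CPM to 38.7 and 41.7 CPM (-1.75 ± 0.20, adjusted p 0.00511). Thsd4, which helps fibrillin microfibrils assemble, fell from 414 and 333 CPM to 134 and 64.5 CPM (-2.06 ± 0.27, adjusted p 0.00911 in the core and 0.0152 under the stricter filter). Over all resting nuclei Thsd4 showed no fall, with 498 and 481 CPM in the controls and 684 and 351 CPM with YAP5SA (adjusted p 0.961), so its call rests on leaving out nuclei with other markers. Kcnk13, a background potassium channel, fell from 66.5 and 104 CPM to 8.92 and 26.5 CPM (adjusted p 0.0209). Adcy2, an adenylate cyclase, fell from 109 and 140 CPM to 50.6 and 32.9 CPM (adjusted p 0.0126). Negr1, a neuronal adhesion protein, fell from 571 and 775 CPM to 236 and 381 CPM (adjusted p 0.0326). Onecut2, Rassf5, Spon2, Bmp6, Colgalt2 and Per1 completed the list. Of the 134 genes, 11 were called under all 14 alternatives of the core test, namely Ccn2, Nhsl2, Adra1a, Trhde, Thsd4, Ptn, Inpp4b, Mical2, Sorcs2, Tenm4 and Gm15261. Gm15261 is named here only for that count.

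**Figure D4:**
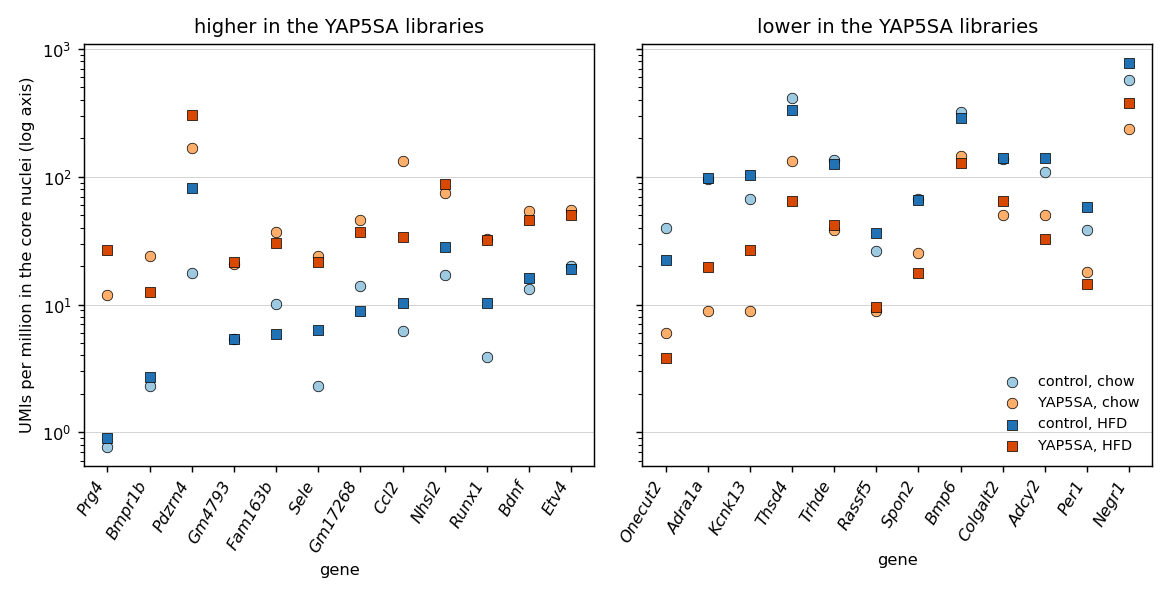
Level of the 12 higher and 12 lower genes the naming rule chose (x axis) in the core of each library, in CPM on a log axis (y axis), 1 point per library. For every gene both YAP5SA points lie on one side of both control points, as in Adra1a with 95.9 and 98.3 against 8.92 and 19.6. The genes were chosen from the calls, which favour such a separation.

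Levels were also compared inside the 2 largest core clusters for 20 genes. In the largest, with 333, 132, 516 and 274 core nuclei of the control chow, YAP5SA chow, control HFD and YAP5SA HFD libraries, Adra1a was at 106, 14.5, 115 and 35 CPM in that order, Ccn2 at 29.1, 135, 33.5 and 96.5 CPM, and Thsd4 at 434, 181, 360 and 44.6 CPM. Ptn was at 811, 549, 732 and 520 CPM. Smad6 hardly differed on HFD there, at 123 and 135 CPM. The cluster led by Sorcs3 and Col24a1 had 22 and 51 control core nuclei and 72 and 157 YAP5SA ones, with Piezo2 at 310, 367, 355 and 636 CPM. In that cluster 4 genes did not keep 1 direction on both diets: Robo2 was at 107 and 184 CPM on HFD, Smad6 at 502 and 405 CPM on HFD, Osmr at 65.3 and 46.5 CPM on chow, and Adra1a had 0 in both chow cores. Its Ptn level was 81.7, 25.8, 201 and 74.4 CPM, below that of the largest cluster in every library, and how far the mix of the clusters moves a level over the whole core was not tested.

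The counts over gene lists that follow stand beside 0.628% of all tested genes higher and 0.558% lower in the core, and no list was tested as a set. Of 24 YAP targets tested in the core, 2 rose (Ccn2 and Ankrd1), and none fell. Their median difference was 0.51 on chow and 0.16 on HFD, beside 0.08 and 0.07 over all genes. Ankrd1, a muscle ankyrin repeat protein, was at 33.3 and 37.3 CPM in the controls and at 153 and 126 CPM with YAP5SA (1.89 ± 0.21, adjusted p 0.00481). Cardiomyocyte nuclei had far more of it, 1042 and 899 CPM in the controls and 2553 and 1416 CPM with YAP5SA, and the part of their free RNA was not tested. Tead1, the DNA-binding partner, was at 646, 879, 590 and 586 CPM in the order control chow, YAP5SA chow, control HFD and YAP5SA HFD (adjusted p 0.777). Of 26 Hippo components 1 fell: Frmd6, an upstream activator of the kinases, from 436 and 547 CPM to 259 and 250 CPM (-1.02 ± 0.16, adjusted p 0.0159). Wwtr1, which encodes TAZ, was at 285 and 405 CPM against 379 and 303 CPM (adjusted p 0.884).

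TEAD factors bind the letters GGAATG, and the Ankrd1 promoter is shown because it carries them in a gene called here. The window runs from 250 bases before to 50 after the start (RefSeq, GRCm38.p6, chr19:36119795-36120094, minus strand), with GGAATG or its reverse complement CATTCC in capitals, which occur 2 times.
Ankrd1: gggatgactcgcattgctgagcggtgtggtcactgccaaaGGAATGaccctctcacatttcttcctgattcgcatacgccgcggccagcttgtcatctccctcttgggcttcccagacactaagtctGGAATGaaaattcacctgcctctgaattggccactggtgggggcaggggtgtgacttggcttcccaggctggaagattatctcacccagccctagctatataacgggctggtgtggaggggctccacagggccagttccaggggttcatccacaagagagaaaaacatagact
Of the higher genes called in the core, 40 matched a promoter by symbol and 6 of these held the letters (15%). Of the lower ones 7 of 44 did (15.9%), beside 14.6% of all 27025 promoters in the table and 11.9% of those of tested genes. At least 2 matches, as in Ankrd1, were found in 3 of the 40 (7.5%) and 0 of the 44, beside 1.35% of all promoters and 0.839% of those of tested genes. A match is a run of letters and no evidence of binding.

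Of 21 matricellular genes, whose proteins signal from the matrix, 4 rose and 1 fell. Thbs1, a thrombospondin that can activate TGF-beta, rose from 48.7 and 57.9 CPM to 180 and 102 CPM (adjusted p 0.0441), and Igfbp7 from 865 and 861 CPM to 1328 and 1504 CPM (adjusted p 0.0441). Ccn2 and Thbs4 were the other 2. Spon2 fell from 66.5 and 65.6 CPM to 25.3 and 17.7 CPM (adjusted p 0.0136). The list's median was 0.10 on chow and 0.35 on HFD. None of the 6 fibrillar collagen genes outside the rule, the 11 other collagens, the 24 crosslinking and processing genes or the 16 elastic fibre genes was called.

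Col5a2, a fibrillar collagen chain, was at 987 and 938 CPM in the controls and 1353 and 1035 CPM with YAP5SA (adjusted p 0.578). Fbn1, the fibrillin scaffold, was at 1249 and 1238 CPM against 1411 and 1199 CPM (adjusted p 0.998). Eln, elastin, was at 1016 and 1322 CPM against 1050 and 709 CPM (adjusted p 0.309). Among 19 proteoglycans Prg4 rose and Gpc6 fell, the latter from 5663 and 5766 CPM to 4123 and 3821 CPM (-0.59 ± 0.12, adjusted p 0.0387). Mmp16, a membrane-type metalloproteinase, was the 1 called of 28 protease genes, falling from 510 and 579 CPM to 285 and 292 CPM (-0.98 ± 0.15). Itga8, an integrin subunit of mesenchymal cells, was the 1 called of 18 integrins, falling from 384 and 314 CPM to 193 and 171 CPM (-1.01 ± 0.17). Of 18 basement membrane genes Col4a4 rose, from 95.1 and 86.2 CPM to 150 and 184 CPM (adjusted p 0.049, and 0.102 under the stricter filter), while cardiomyocyte nuclei reached 497 and 210 CPM with YAP5SA.

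Of 21 myofibroblast genes 2 rose, Runx1 and Piezo2, and the medians were 0.78 on chow and 0.19 on HFD. Both genes were also called lower in resting than in activated core nuclei, as given below. Piezo2, a stretch-gated channel, was at 112 and 126 CPM in the controls and 257 and 304 CPM with YAP5SA (1.17 ± 0.17, adjusted p 0.0119). Postn, periostin, was at 1230 and 1335 CPM against 1329 and 1049 CPM (adjusted p 0.703), and Tpm1 at 234 and 352 CPM against 471 and 397 CPM (adjusted p 0.307). Besides Piezo2, 2 of 17 ion channel genes were called: Cacna1d, a calcium channel subunit, fell from 360 and 308 CPM to 174 and 190 CPM, and Gpm6b, a membrane glycoprotein, from 447 and 467 CPM to 280 and 296 CPM.

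Of 37 TGF-beta and BMP genes 2 rose and 1 fell: Bmpr1b rose, the inhibitory Smad6 rose from 108 and 162 CPM to 288 and 252 CPM (adjusted p 0.0491, and 0.14 under the stricter filter), and the ligand Bmp6 fell from 322 and 289 CPM to 144 and 129 CPM (-1.24 ± 0.16, adjusted p 0.00911). Of 41 growth factors and receptors 3 rose and 2 fell. The PDGF receptor Pdgfrb rose from 95.9 and 86.2 CPM to 195 and 249 CPM (1.24 ± 0.18, adjusted p 0.0126). It was not called under the stricter filter (adjusted p 0.0584) or over all resting nuclei (0.584). The stricter filter counted Pdgfrb among its pericyte markers and so capped its level, and little can be read from that value. Pdgfrb is also a pericyte marker, and the part of pericyte RNA in its level was not tested. Fgfr2 rose from 493 and 476 CPM to 736 and 888 CPM, and Igfbp5 from 54.9 and 79.5 CPM to 152 and 149 CPM (adjusted p 0.0375, and 0.0569 under the stricter filter). Ptn, the growth factor pleiotrophin, fell from 779 and 667 CPM to 390 and 346 CPM (-1.04 ± 0.15, adjusted p 0.0129). Fgf13 fell as well (adjusted p 0.0441, and 0.0685 under the stricter filter), but cardiomyocyte nuclei held 3475 to 4862 CPM of it against 53.7 to 150 CPM in the core.

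Of 22 complement, chemokine and cytokine genes 4 rose and none fell, with medians of 0.36 on chow and 0.39 on HFD. Besides Ccl2 and Ccl7 these included Osmr, the oncostatin M receptor, which rose from 65 and 61.1 CPM to 122 and 121 CPM (adjusted p 0.0473, and 0.172 under the stricter filter). Of 32 Wnt genes 1 rose, the Wnt antagonist Nkd2, from 12.4 and 12.1 CPM to 31.2 and 42.4 CPM (adjusted p 0.0422, and 0.162 under that filter). Of 27 guidance genes 5 fell and 1 rose, with medians of -0.04 on chow and -0.53 on HFD. Slit2 fell from 943 and 966 CPM to 604 and 590 CPM, and its receptor Robo2 from 670 and 605 CPM to 355 and 348 CPM (adjusted p 0.0326 and 0.0152). Epha4, Efna5 and Plxdc2 were the other 3, and the netrin receptor Unc5b rose from 75 and 88.4 CPM to 141 and 168 CPM.

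Of 20 clock genes 3 fell and none rose, with medians of -0.19 on chow and -0.43 on HFD. Per1 fell from 38.7 and 58.4 CPM to 17.8 and 14.5 CPM, Per3 from 99.8 and 108 CPM to 49.1 and 59.4 CPM (adjusted p 0.0441, and 0.0594 under the stricter filter), and Rora from 5624 and 5908 CPM to 3580 and 4156 CPM. Their positive partner Arntl was at 91.2 and 96.1 CPM against 146 and 142 CPM (adjusted p 0.182). The hour of collection was not given. Of 36 fibroblast transcription factors Runx1 rose and Creb5 fell (from 616 and 889 CPM to 413 and 403 CPM), while Tbx20, Zeb1, Zeb2 and Nfia were not called. None of 30 DNA replication genes was called. Of the 26 at 10 CPM or more, 10 had a ratio of 1.5 or more on both diets, beside 4.54% of all genes at that level. Their medians were 1.11 and 0.49. None of 13 interferon genes was called, with medians of 0.35 and 0.83, nor of 47 respiratory chain genes, with medians of 0.10 and -0.11.

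Immediate early genes differed by diet in their median, at 1.33 on chow and -0.38 on HFD, and none of 21 was called. Egr1 was at 79.6 CPM in the control chow and 229 CPM in the YAP5SA chow core, and at 93.4 and 74 CPM in the HFD cores. In metabolism, none of 28 fatty acid responsive genes, 27 lipid synthesis genes, 25 glycolysis genes or 21 insulin and FoxO genes was called. Lpl, lipoprotein lipase, came nearest among those named by the rule, at 201 and 178 CPM against 113 and 135 CPM (adjusted p 0.0976). The adipogenic factor Ebf3 was at 495 and 415 CPM against 294 and 291 CPM (adjusted p 0.051).

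Maternal diet was tested with the vector as a second term. Over all resting nuclei 7 of 13462 genes were called (0.052%), 5 higher (0.0371%) and 2 lower (0.0149%) with HFD. In the core 9 of 11298 were called (0.0797%), 8 higher (0.0708%) and 1 lower (0.00885%). Haemoglobin genes were among the higher ones in both sets. Hbb-bs was at 110 and 161 CPM in the control and YAP5SA chow cores and at 481 and 1470 CPM in the HFD cores (2.65 ± 0.22, adjusted p 9.32e-06). Hba-a1 and Hbb-bt followed the same order. In cardiomyocyte nuclei Hbb-bs was at 143, 105, 128 and 43.9 CPM in the order control chow, YAP5SA chow, control HFD and YAP5SA HFD, so it was not higher with HFD there. Haemoglobin is made by red blood cells, and red cell RNA in the droplets was not tested.

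Csmd1, a complement regulator of nervous tissue (chr8:15892537-17535586), was at 22.4 and 31.2 CPM on chow and at 262 and 216 CPM with HFD (3.21 ± 0.25, adjusted p 9.32e-06). Csmd1 and Slc35f1, also called, are the leading genes of the 21-nucleus cluster that carried Sox10, a Schwann cell factor. That cluster put 5 and 4 nuclei into the control and YAP5SA HFD cores and 0 into the chow cores. Without those nuclei Csmd1 was at 52.6 and 124 CPM with HFD. Slc35f1 then had 10 and 3 UMIs with HFD against 6 and 11 on chow. Both genes lead that cluster, which was formed on expression, so a drop without its nuclei is partly built in. Tenm2, a teneurin adhesion protein, had 1 and 0 UMIs on chow and 20 and 143 with HFD (adjusted p 0.00209), and 20 and 15 with HFD once the Cntn5 and Wif1 cluster was left out. C1qtnf7, a secreted C1q relative, was at 402 and 161 CPM on chow and at 664 and 494 CPM with HFD (adjusted p 0.0453). Tpm3-rs7, a tropomyosin-related sequence, was the lower gene, with 25 and 14 UMIs on chow and 1 and 2 with HFD, and cardiomyocyte nuclei showed the same order (5.44 and 13.9 CPM on chow, 0.233 and 0.416 CPM with HFD). It has near-identical relatives, so its reads are uncertain.

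Over all resting nuclei Cntn5 and Efemp1 were called too, and the Cntn5 rise came from 1 library, with 303 UMIs in YAP5SA HFD against 2, 10 and 10 in the control chow, YAP5SA chow and control HFD libraries. Efemp1, a leading gene of the Muc16 cluster, was at 176 and 487 CPM on chow and at 93.1 and 151 CPM with HFD. None of the gene lists on lipid handling, insulin or clock had a called gene for diet in the core. Of the 9 core calls 3 remained under DESeq2, 1 without the vector term and 0 after thinning.

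The resting core was then set beside activated and adventitial-type nuclei that passed the same gate. The rule built these states, so the counts are a description and nothing is read from them. Between resting and activated core nuclei edgeR called 363 of 11036 genes (3.29%), and between resting and adventitial-type ones 1036 of 10703 (9.68%). At least 1.5-fold differences in every library were found for 60 genes higher (0.606%) and 27 lower (0.273%) in resting than in activated nuclei, of 9898. Against adventitial-type nuclei they were found for 128 higher (1.3%) and 124 lower (1.26%) of 9809.

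Potassium channel genes were among those higher in resting than in activated nuclei. Kcnd3, a transient outward channel, was at 24, 25.3, 11.2 and 43 CPM in resting and at 3.14, 10.8, 4.44 and 9.16 CPM in activated nuclei of the control chow, YAP5SA chow, control HFD and YAP5SA HFD libraries. Kcnd2 and Trpm3 went the same way in every library, 3 of 16 ion channel genes in all. Nkd1, a Wnt feedback inhibitor, was at 25.5, 32.7, 22 and 26.5 CPM against 6.99 to 10.5 CPM. Lifr, the LIF receptor, Plxna4, Angpt1 and Wnt4 were higher as well. Lower in resting nuclei were Thbs4 (0, 32.7, 1.8 and 14.5 CPM against 18.9, 355, 12.4 and 82.1 CPM), Ccn4 and Cilp, genes of the reactive matrix. Thbs4 was thus high in activated nuclei of the YAP5SA libraries and rose in the resting core as well, at a lower level. Of the genes that rose with YAP5SA, Runx1, Piezo2, Thbs1, Ccn2, Igfbp7 and Nkd2 were called lower in resting than activated nuclei too. Itga8, Frmd6, Ptn, Slit2, Plxdc2, Epha4 and Gpm6b, which fell, were called higher in resting nuclei. Creb5, which also fell, was called lower there. Others, such as Pdgfrb, Bmp6, Robo2 and Smad6, were not called between these states. The part of a state shift was not tested beyond the narrower limits.

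Against adventitial-type nuclei the resting core was lower in Sema3c, a semaphorin, at 105, 61, 162 and 112 CPM against 901, 486, 1036 and 759 CPM. Ntn4, a netrin, was at 25.3 to 48.5 CPM against 154 to 262 CPM, and Ackr3, a chemokine scavenger receptor, at 33.3 to 57 CPM against 147 to 310 CPM. Pi16, a marker of adventitial progenitors, Has2, Mfap5 and Ebf1 were lower in resting nuclei in every library too. Bmp6 was at 322, 144, 289 and 129 CPM in resting and at 621, 232, 808 and 476 CPM in adventitial-type nuclei, so its level was lower in resting nuclei of every library.

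Higher in the resting core than in adventitial-type nuclei were 4 of 24 Wnt genes, Wif1, Dkk3, Rspo2 and Nkd1, and the integrins Itga1 and Itga8. Wif1 had a UMI in only 2.06% of core nuclei. It stood at 211 CPM in the Cntn5 and Wif1 cluster against 1.88 CPM in the other resting nuclei. Itga1, a collagen receptor subunit, was at 441, 393, 314 and 449 CPM against 219, 216, 137 and 162 CPM. Vegfc, a lymphatic growth factor, was at 211 to 283 CPM against 77.2 to 167 CPM, and Pdgfrb at 86.2 to 249 CPM against 30.1 to 48.6 CPM. Col24a1, Unc5b and Smad6 were higher in every library as well. The YAP5SA chow library held the fewest adventitial-type nuclei, and its values there rest on few UMIs.

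**Figure D5:**
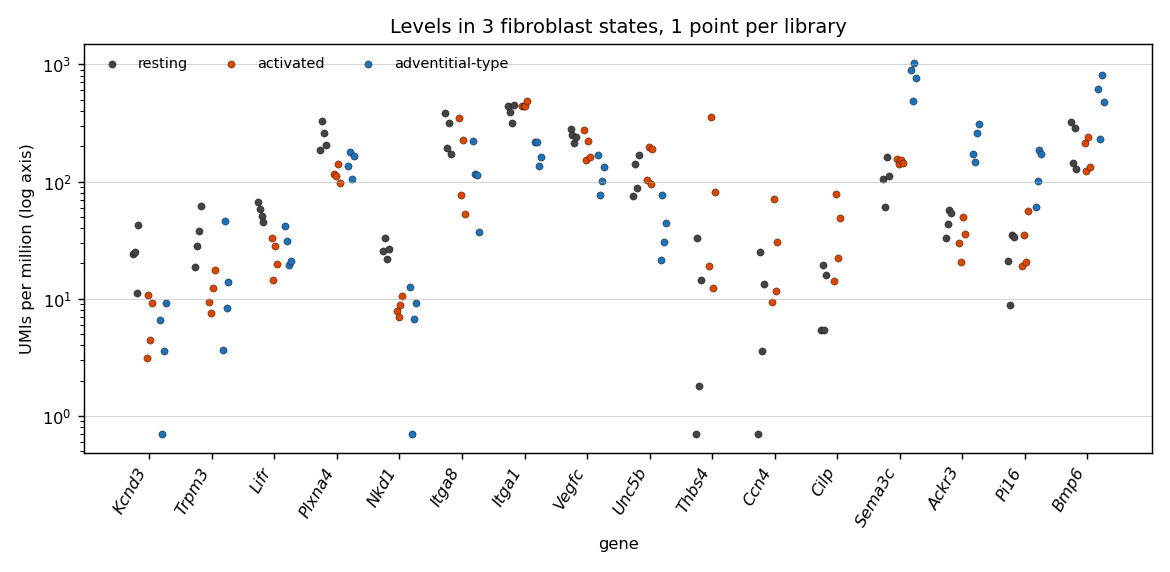
Levels in CPM (y axis, log axis) of 16 genes (x axis) in resting, activated and adventitial-type nuclei without other types' markers, 1 point per library, with values under 0.7 drawn at 0.7. The 4 libraries of the adventitial-type state lie above the resting ones for Sema3c, Ackr3, Pi16 and Bmp6 paired by library, and Thbs4, Ccn4 and Cilp have no adventitial-type points because their mean was under 10.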

How the data were processed

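Nuclei of 4 whole-heart libraries were profiled with 10x 3′ chemistry. Per the submitters' processing notes, Cell Ranger 7.1.0 and mm10 were used, and the deposited matrices hold UMI counts per gene and nucleus, not normalized. Other steps were not given in the sources used here. Coordinates come from the GENCODE mm10 annotation, which matched 32235 of 32291 features.

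UMI counts of the chosen nuclei were summed per library and tested with edgeR 4.0.16 (R 4.3.3) by the quasi-likelihood test, TMM scaling, filterByExpr and Benjamini-Hochberg adjustment over all genes tested, with a threshold of 0.05. The vector was fitted alone, diet together with the vector, and states together with the library. The SE given with a fold was worked back from the test, as the absolute log2 fold over the square root of its F statistic. CPM is UMIs per 1000000 UMIs of the summed nuclei. Folds within a diet used total counts, a prior of 0.5 counts and exact conditional binomial 95% intervals. List counts use genes tested, and list medians genes of at least 10 CPM. DESeq2 1.42.0, scaling, filters, depth, doublets (Scrublet in scanpy 1.11.5), state limits, thinning and leaving out libraries were alternatives. The code was tested on simulated data.

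The p-values measure the spread between these 4 libraries, with the diets standing in for replicates of each vector arm. The core, the thinned test, the test with limits of 3 UMIs and the levels without single clusters were added after seeing the data. The members and the 48 gene lists were chosen with earlier results of these data known. Genes were named when called at 10 CPM or more, with 1 sign on both diets and a level at least that of cardiomyocyte nuclei, taking the 12 largest in each direction. Called list members and up to 4 abundant ones per list could be named too. This rule was applied to the core, since edgeR's vector test without a diet term called no gene in all members. The 29 genes of the rule, Xist, Tsix, Y-linked, mitochondrial and added sequences were left out of the counts. Some called genes are counted but not reported here by name.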

Additional observations from a re-analysis of the deposited data

Results flagged for a closer look

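Kcnd2, a transient outward potassium channel gene, went opposite ways on the 2 diets in the core. Its level was 39.4 CPM in the control chow and 236 CPM in the YAP5SA chow core, a log2 fold of 2.57, and 110 and 38.6 CPM in the HFD cores, a log2 fold of -1.50. Fgf10, a fibroblast growth factor, did the same, at 13.9 and 28.3 CPM on chow (1.02) and at 26 and 9.48 CPM with HFD (-1.42). Each fold compares 1 library with 1 library, and the difference between the diets was not tested. The YAP5SA chow library also differed in sex. Of 715 listed and named genes at the CPM floor, 12 were at least 1.5-fold apart between YAP5SA and control in opposite directions on the 2 diets. For HFD against chow, 16 were so in control and YAP5SA cores. The shares over all genes were not counted, so nothing is read from these counts.

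The deposited matrices carry 6 added non-mouse features, of which 1, named nsp13, had UMIs above the controls. It had 599 UMIs over all barcodes in the YAP5SA chow library and 244 in the YAP5SA HFD library, against 0 and 1 in the control libraries. Resting nuclei held 10 and 10 of them in the YAP5SA libraries. The other 5 added features had 0 UMIs in every library, and what the feature stands for was not given in the labels.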

How the results depend on the processing

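In all resting nuclei the vector test called 0 genes, and it called 129 with DESeq2, 814 with no low-count filter, 98 without nuclei of other types' markers, 6 with 1000 genes and 1% mitochondrial UMIs, 165 with a diet term, 48 after thinning, 134 in the core and 0 to 1316 when each library was left out. In the core its 134 calls became 505 with no filter, 71 with 1000 genes, 12 with limits of 3 UMIs, 266 after thinning and 204 to 684 without each library in turn. The lone library of an arm was then assumed to vary like the other arm. The diet test called 7 genes in all resting nuclei, 40 with no filter, 18 without nuclei of other types' markers, 4 at 1500 to 6000 UMIs, and 0 without doublets, with 1000 genes, with cardiomyocyte genes under 0.2%, with no vector term, with limits of 3 or after thinning. Its 9 core calls became 3 with DESeq2, 50 with no filter, 14 without doublets, 52 with cardiomyocyte genes under 0.2%, 1 with no vector term and 0 after thinning. The diet test without each library was not run, since it leaves no residual degrees of freedom. Against activated nuclei 2235 calls became 325 without other types' markers, 906 with 1000 genes, 995 with no library block, 1056 after thinning, 363 in the core and 1243 to 1929 without each library. Against adventitial-type nuclei 1978 became 1247 with DESeq2, 826, 1256, 545 and 1259 under the same first 4 changes, 1036 in the core and 761 to 2615 without each library. No replicate pairing could be tested for vector or diet, because each group holds 1 library.

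Resting shares of kept nuclei in the order control chow, YAP5SA chow, control HFD and YAP5SA HFD were 8.22, 4.65, 12.8 and 7.33% with 1000 genes, 7.92, 5.72, 12.3 and 7.41% with cardiomyocyte genes under 0.2%, and 6.43, 5.19, 10.5 and 5.71% with limits of 3 UMIs. Thinning gave 12.3% in control chow, 19.4% in control HFD and 9.05% in YAP5SA HFD. Of fibroblast nuclei they were 67.8, 45.9, 64.6 and 45.4% after thinning and 28.5, 27.5, 27.6 and 22.1% with limits of 3 UMIs. With 1000 genes they were 28.1, 38 and 29.4% in the last 3 libraries, and with cardiomyocyte genes under 0.2% the control HFD share was 37.9%. Among single genes the 1 reversal was Frmd5 against activated core nuclei, at 0.39 after thinning. The 202 genes followed in the core vector test gave 153 lost and 68 gained calls over all alternatives and none with a reversed call. The causes were not tested.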
